A study of Mus musculus with 6 samples.

Results

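Dual-specificity phosphatases are enzymes that remove phosphate from both tyrosine and serine or threonine residues, and many of them switch off MAP kinases. A set of 8 of their genes was examined by symbol among the 11815 genes measured in mouse gastrocnemius, a calf muscle rich in fast fibres: Dusp1, Dusp3, Dusp8, Dusp10, Dusp13, Dusp16, Dusp22 and Dusp26. All 8 were present in the table. The set was selected on the difference in RPKM between genotypes in these same libraries, most of all that of Dusp10. Those differences are therefore given as a description, with no test of the members.

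Wild-type (WT) mice were compared with mice without lnc-ORA, a long non-coding RNA, and the study asked how lnc-ORA acts on the conversion of muscle fibre types. The knockout (KO) was a germline deletion of 5147 bp that takes in the whole lnc-ORA transcript, made with a pair of CRISPR guides in fertilized eggs on a C57BL/6 background, with founders bred to wild-type mice. The KO mice were 15 weeks old. The labels give no age for the WT mice, and neither sex nor the number of founder lines for either group. Each genotype had 3 libraries, numbered 2 to 4 in WT and 1 to 3 in KO, with 54370181 to 69693905 counted reads per library. Whether the libraries are of separate animals is not stated, so every SE and p-value measures only the spread between these libraries. Levels are in RPKM (reads scaled by gene length and by library total), which allows levels of different genes to be set side by side. The muscle genes Ckm and Acta1 stood at 2255 to 2651 and at 5544 to 6198 RPKM in the 6 libraries. The level of lnc-ORA itself was not analysed here, and the genotype labels were taken as given.

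MAP kinase cascades run from a MAP kinase kinase kinase through a MAP kinase kinase to ERK, p38 or JNK, and end at kinases and transcription factors that these phosphorylate. The typical MAP kinase phosphatases carry a domain that docks onto the kinase, and several of them are themselves induced when the cascade is active. In skeletal muscle, p38 acts on MEF2 factors and on the coactivator PGC-1alpha (gene Ppargc1a), which link these cascades to the oxidative fibre programme. Among the members, Dusp1, Dusp8, Dusp10 and Dusp16 encode MAP kinase phosphatases that act on p38 and JNK. Dusp3, Dusp13, Dusp22 and Dusp26 encode small atypical enzymes that lack the docking domain.

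The stretches just upstream of the gene starts are printed for Dusp10, which had the largest KO minus WT difference of the members, and for Dusp1 and Dusp8, which act on the same kinases. Each runs 5′ to 3′ on the strand of its gene over the 250 bases before the RefSeq start (build GRCm38.p6). RefSeq starts were at hand for 7 of the 8 members. Dusp10 lies at chr1:184034131-184034380 (plus strand), with capitals on CCAAT boxes (CCAAT on either strand); Dusp1 lies at chr17:26508473-26508722 and Dusp8 at chr7:142095285-142095534 (both minus strand), with capitals on the full cAMP response element TGACGTCA.
Dusp10: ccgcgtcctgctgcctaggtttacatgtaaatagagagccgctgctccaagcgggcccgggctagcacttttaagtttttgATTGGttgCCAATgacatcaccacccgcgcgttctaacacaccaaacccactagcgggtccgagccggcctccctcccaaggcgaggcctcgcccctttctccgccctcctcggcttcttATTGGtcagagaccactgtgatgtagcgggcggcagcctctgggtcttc
Dusp1: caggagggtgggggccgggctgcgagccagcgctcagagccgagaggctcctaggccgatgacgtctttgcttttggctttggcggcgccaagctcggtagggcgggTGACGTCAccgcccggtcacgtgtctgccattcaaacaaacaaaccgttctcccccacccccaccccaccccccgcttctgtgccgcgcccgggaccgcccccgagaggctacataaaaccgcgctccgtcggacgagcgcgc
Dusp8: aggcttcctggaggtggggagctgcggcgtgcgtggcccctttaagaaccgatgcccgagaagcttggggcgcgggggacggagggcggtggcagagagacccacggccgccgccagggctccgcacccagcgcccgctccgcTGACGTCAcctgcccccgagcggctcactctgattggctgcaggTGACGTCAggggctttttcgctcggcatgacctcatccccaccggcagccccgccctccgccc

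The Dusp10 stretch held 3 CCAAT boxes. At least 1 was found in 33.85% of 32851 such stretches, and the share with 3 was not counted. The Dusp10 stretch held no TGACGTCA, which occurred in 1.55% of all stretches. The Dusp1 stretch held 1 TGACGTCA and the Dusp8 stretch held 2. Dusp8 also held 1 CCAAT box, not capitalized above, and Dusp1 held none. The stretch of Dusp16, the remaining p38 and JNK phosphatase, is not printed. It held 1 CCAAT box and no TGACGTCA, so neither having a CCAAT box nor lacking TGACGTCA is particular to Dusp10 among these genes. Dusp10 held the most CCAAT boxes of them, and whether that number matters was not tested. Neither Dusp10, Dusp1 nor Dusp8 held the AP-1 motif TGANTCA (6.75% of all stretches) or TATAAA (12.37%), each searched on both strands. A match is a run of letters and not a shown binding site. GENCODE also places a Dusp10 start farther upstream (gene span chr1:184013302-184075636, GRCm38), and which start these libraries used was not tested.

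Dusp10 was much lower in KO muscle. Dusp10 encodes MKP-5, a phosphatase of p38 and JNK. Its level was 3.11, 3.88 and 3.83 RPKM in WT replicates 2, 3 and 4 and 0.545, 0.520 and 0.699 RPKM in KO replicates 1, 2 and 3. The highest KO library lay far below the lowest WT library. The WT mean of 3.61 ± 0.431 RPKM compared with a KO mean of 0.588 ± 0.0968 (SD, n = 3 each), so that WT stood 6.13-fold above KO. The difference was -1.53 on the scale of log2(RPKM + 1), where changes of low genes come out smaller (SE 0.09). These levels rest on 641 to 764 reads per WT library and on 88 to 130 reads per KO library. The authors' deposited table lists a log2 fold change of -2.10 for Dusp10, against a log2 ratio of -2.62 between the mean RPKM values, and the sources used here do not give the samples or scaling behind the former. No other gene overlaps the exons of Dusp10, and none of the 50-base stretches of its longest transcript occurs in transcripts of another gene.

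**Figure D1:**
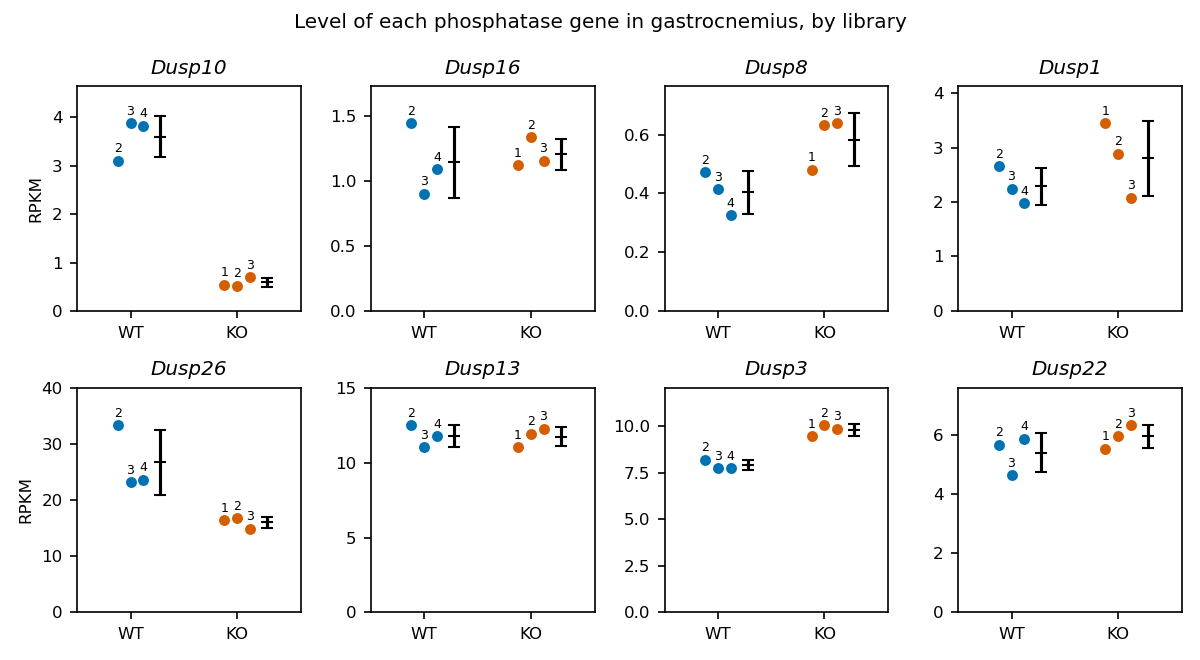
RPKM of each of the 8 phosphatase genes in the WT libraries (blue) and the KO libraries (orange), each point a library marked with its replicate number, with the mean and SD in black and every axis starting at 0. Dusp10 is at 3.11 to 3.88 RPKM in WT and 0.520 to 0.699 in KO, and Dusp26 is the other gene whose KO libraries all lie below the WT libraries.

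None of the other phosphatases of p38 and JNK was lower in every KO library. Dusp1 encodes MKP-1, a nuclear phosphatase that is quickly induced by stress and hormones. It was at 2.65, 2.24 and 1.97 RPKM in WT replicates 2, 3 and 4 and at 3.44, 2.89 and 2.08 RPKM in KO replicates 1, 2 and 3, and the groups overlapped (log2 difference 0.20, SE 0.14). An opposite-strand gene, Ergic1, overlaps exons annotated to Dusp1, and whether strand was used in counting is not stated. Dusp16, which encodes the JNK phosphatase MKP-7, ranged from 0.901 to 1.44 RPKM in WT and from 1.12 to 1.34 in KO. Its groups overlapped too (log2 difference 0.05, SE 0.10), and its sign turned without WT replicate 3 (-0.04).

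Dusp8 encodes a p38 and JNK phosphatase best known from brain and heart. It was the lowest of the set, at 0.471, 0.415 and 0.326 RPKM in WT replicates 2, 3 and 4 and at 0.481, 0.631 and 0.638 in KO replicates 1, 2 and 3. All KO libraries lay above all WT libraries, KO replicate 1 by a narrow margin, and the log2(RPKM + 1) difference was 0.17 (SE 0.06) on 104 to 190 reads per library. It did not reach the minimum of 1 RPKM in 3 or more libraries, so 7 of the 8 members entered the fit across all genes. With a pseudocount of 0.1 in place of 1, its difference was 0.44. An opposite-strand gene, Gm32786, overlaps exons of Dusp8.

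The 4 phosphatases of p38 and JNK were also summed in each library. The sum was 7.67, 7.44 and 7.22 RPKM in WT replicates 2, 3 and 4 and 5.59, 5.37 and 4.57 RPKM in KO replicates 1, 2 and 3. The sum without Dusp10 was 3.39 to 4.57 RPKM in WT and 3.87 to 5.04 in KO, and those ranges overlapped. Dusp10 made up 40.5 to 53.1% of the sum in the WT libraries and 9.70 to 15.3% in the KO libraries. Dusp1 made up 27.3 to 34.6% in WT and 45.5 to 61.6% in KO. It was second to Dusp10 in every WT library and the largest of the 4 in every KO library.

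**Figure D2:**
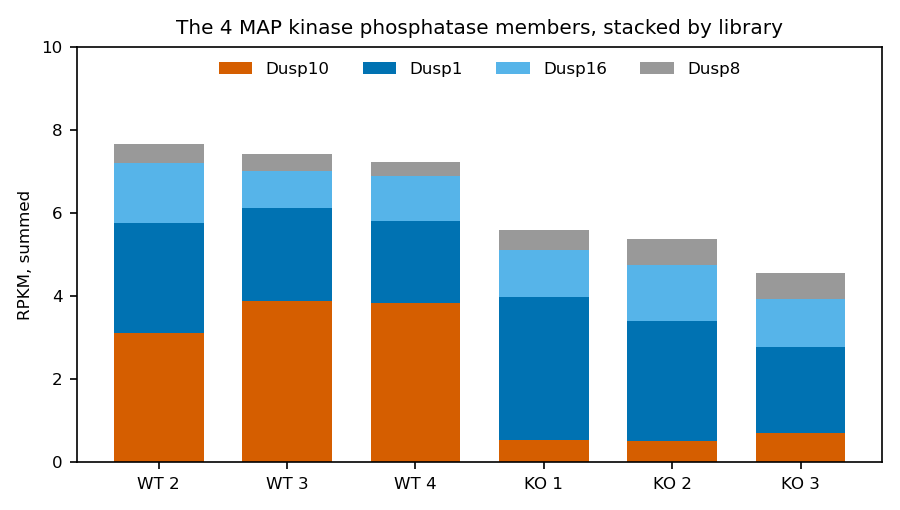
Stacked RPKM of Dusp10, Dusp1, Dusp16 and Dusp8 in each of the 6 libraries (WT replicates 2 to 4, KO replicates 1 to 3). The stacks reach 7.22 to 7.67 RPKM in WT and 4.57 to 5.59 in KO, and the Dusp10 segment is the one that shrinks.

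Of the atypical enzymes, Dusp26 was lower and Dusp3 slightly higher in KO muscle. Dusp26, an atypical phosphatase found in brain, heart and skeletal muscle, was the most abundant member. It stood at 33.4, 23.3 and 23.6 RPKM in WT replicates 2, 3 and 4 and at 16.4, 16.9 and 15.0 RPKM in KO replicates 1, 2 and 3. WT replicate 2 was well above the other WT libraries, and every KO library was below every WT library. The mean was 26.8 ± 5.75 RPKM for WT against 16.1 ± 0.993 for KO (SD, n = 3 each). The log2 difference of -0.68 (SE 0.14) became -0.52 without WT replicate 2. The authors' deposited table lists a log2 fold change of -0.52 for Dusp26, against a log2 ratio of -0.74 between the mean RPKM values of all libraries. The samples and scaling behind the authors' value are not given. Nothing is therefore read from its likeness to the value without WT replicate 2, which is on the scale of log2(RPKM + 1).

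Dusp3 encodes VHR, a small phosphatase of ERK and JNK. It was at 8.19, 7.75 and 7.74 RPKM in WT replicates 2, 3 and 4 and at 9.46, 10.1 and 9.85 RPKM in KO replicates 1, 2 and 3. The groups did not overlap, the spread within each was small, and the log2 difference was 0.28 (SE 0.07). It rests on 1974 to 3044 reads per library. An opposite-strand gene of GENCODE, Gm20659, overlaps exons of Dusp3.

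Dusp13 encodes both a muscle form and a testis form from 1 locus, which the gene-level values do not separate. It was at 11.1 to 12.6 RPKM in WT and 11.1 to 12.3 in KO (log2 difference 0.00, SE 0.08), the nearest to equal of the 8. The opposite-strand gene Gm15935 overlaps its exons. Dusp22 encodes an atypical phosphatase known to activate JNK. It was at 4.65 to 5.89 RPKM in WT and 5.55 to 6.35 in KO (log2 difference 0.12, SE 0.10), and its groups overlapped. The members Dusp3, Dusp13, Dusp22 and Dusp26 together came to 46.8 to 59.8 RPKM in WT and 42.5 to 44.9 in KO. Dusp26 made up 48.2 to 55.8% of that sum in WT and 34.4 to 38.7% in KO. The sum without Dusp26 was 23.5 to 26.4 RPKM in WT and 26.1 to 28.5 in KO, and those ranges overlapped.

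The order of the members by level per kilobase differed between the genotypes in the place of Dusp10. In WT muscle it ran Dusp26, Dusp13, Dusp3, Dusp22, Dusp10, Dusp1, Dusp16 and Dusp8, and no neighbouring ranges overlapped. In KO muscle it ran Dusp26, Dusp13, Dusp3, Dusp22, Dusp1, Dusp16, Dusp10 and Dusp8. There the ranges of Dusp10 (0.520 to 0.699 RPKM) and Dusp8 (0.481 to 0.638 RPKM) overlapped, and those of the other neighbours did not.

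In the fit of limma-trend across 7574 genes, 17.3% of genes were called at an adjusted p under 0.05, 3.83% as higher and 13.5% as lower in KO. Of the 7 members in that fit, 1 lay past this threshold as higher (Dusp3) and 2 as lower (Dusp10 and Dusp26). The members were selected on the same contrast, so this count is no test of them and nothing is read from it. All KO libraries lay below all WT libraries for 30.0% of tested genes and above them for 9.22%. The median log2 difference was 0.05 over the tested members and -0.09 over all tested genes. With library medians made equal, the median over all genes moved by about 0.1 to 0.01 and the calls went from 290 higher and 1021 lower to 602 higher and 665 lower. Under that scaling Dusp10 was at -1.43, Dusp26 at -0.58, Dusp3 at 0.38 and Dusp13 at 0.10.

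**Figure D3:**
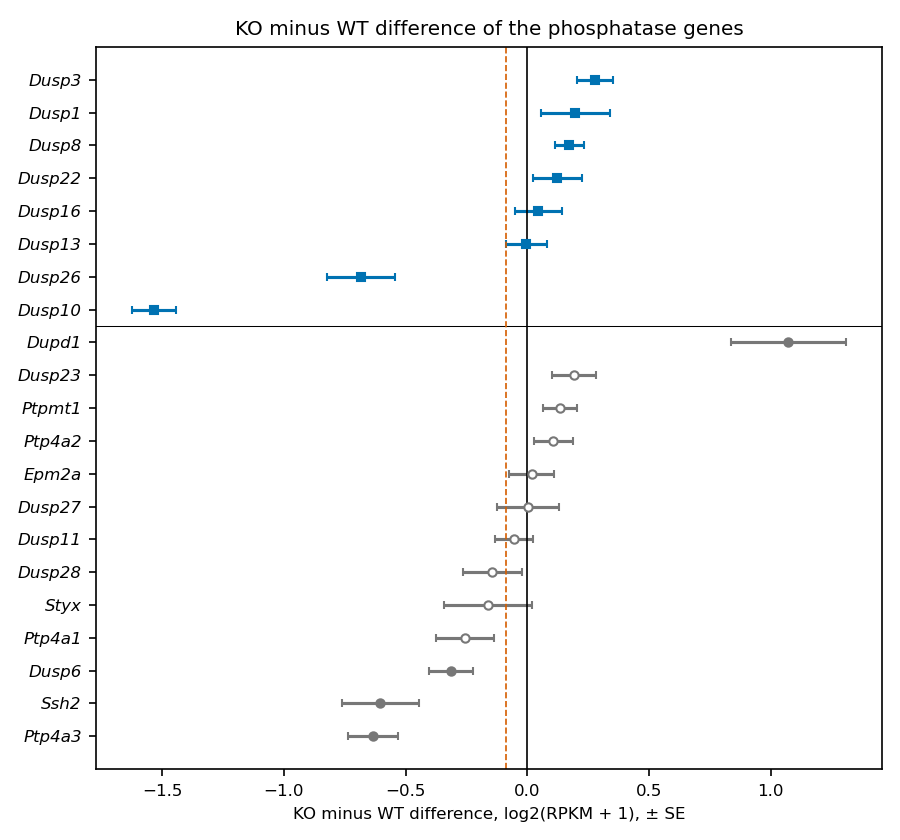
KO minus WT difference in log2(RPKM + 1), with its SE, for the 8 members (blue squares, upper block) and the 13 other tested genes of the superfamily (grey circles, lower block; filled where called at an adjusted p under 0.05). The dashed line is the median of all tested genes (-0.09); Dusp10 (-1.53) lies farthest to the left and Dupd1 (1.07) farthest to the right.

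A few of the remaining phosphatases of the superfamily differed between genotypes. Of 30 listed, 22 were in the table and 13 were tested, of which 1 was higher and 3 were lower in KO (limma-trend), with a median log2 difference of -0.05. Over all tested genes, 17.3% were called. The count of 4 was 1 without WT replicate 3, 2 without KO replicate 1 or 2 and 1 without KO replicate 3. Dupd1, the muscle phosphatase DUSP29, was at 1.86, 2.76 and 4.44 RPKM in WT replicates 2, 3 and 4 and at 9.36, 5.81 and 6.73 in KO replicates 1, 2 and 3. All KO libraries lay above all WT libraries (log2 difference 1.07, SE 0.24, adjusted p = 0.0209). Dupd1 (chr14:21676537-21714576) lies beside Dusp13 (chr14:21733394-21751181, both on the minus strand, GRCm38), whose groups overlapped. That call did not survive the removal of WT replicate 3, KO replicate 1 or KO replicate 3 (adjusted p = 0.0719 at most).

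Of the phosphatases lower in KO, Ptp4a3, the membrane phosphatase PRL-3, went from 26.2 ± 3.19 to 16.4 ± 0.937 RPKM (log2 difference -0.63, adjusted p = 0.00703), and it stayed called in every alternative run. Ssh2, a slingshot phosphatase of cofilin, went from 2.14 ± 0.750 to 1.02 ± 0.0854 RPKM (log2 difference -0.60, adjusted p = 0.0363). Removing WT replicate 3 or any of the KO libraries ended the Ssh2 call (adjusted p = 0.115 at most). Dusp6, the cytoplasmic ERK phosphatase MKP-3, was the tested one of 6 further typical MAP kinase phosphatases. Dusp6 was at 1.03 to 1.21 RPKM in WT and 0.560 to 0.952 in KO (log2 difference -0.31, adjusted p = 0.049). It reached 1 RPKM in the WT libraries only, so it entered the fit through the group where it was higher. Nothing is therefore read from its call, which is among those counted as lower. The call ended when WT replicate 2, WT replicate 3, KO replicate 2 or KO replicate 3 was removed (adjusted p = 0.155 at most). It ended too with a pseudocount of 0.1, with equal library medians and in limma-voom on recovered reads (adjusted p = 0.191 at most).

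The MAP kinase cascades comprise the substrates of these phosphatases and the kinases above and below them. Of 72 such genes listed, 59 were in the table and 41 were tested, of which 2 rose and 7 fell. Their median log2 difference was -0.05. These 9 of 41 lie near the 17.3% called over all tested genes. The count of 9 calls was 3 without WT replicate 3 and 1, 0 and 1 without KO replicates 1, 2 and 3, where 10, 14, 12 and 10 genes had an unadjusted p under 0.05 in limma. Limma-voom on the recovered reads called 8.

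The kinases that activate p38 went opposite ways. Map2k6 rose from 1.32, 1.495 and 1.80 RPKM in WT replicates 2, 3 and 4 to 2.35, 2.48 and 2.30 in KO replicates 1, 2 and 3 (log2 difference 0.42, SE 0.09, adjusted p = 0.0166). Map2k3 fell from 11.4, 13.4 and 11.5 to 7.90, 7.83 and 9.06 RPKM (log2 difference -0.50, SE 0.10, adjusted p = 0.0131). In neither gene did the groups overlap, and Map2k3 stayed the more abundant of the pair in every library. Removal of WT replicate 3 or of any KO library ended the Map2k6 call (adjusted p = 0.0613 at most), and removal of KO replicate 1 or 2 ended that of Map2k3 (0.0568 at most). The other 5 MAP kinase kinases did not pass, with log2 differences from -0.22 for Map2k7 to 0.27 for Map2k2.

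Of 7 tested MAP kinases, 1 passed. Mapk3, which encodes ERK1, went from 1.31 ± 0.101 to 0.957 ± 0.107 RPKM (log2 difference -0.24, adjusted p = 0.0491). The call ended in 10 of 11 alternatives, including removal of WT replicate 2, of WT replicate 3 or of any KO library (adjusted p = 0.19 at most). The p38 gene Mapk14 had 3.56 ± 0.399 RPKM in WT against 4.49 ± 0.369 in KO (adjusted p = 0.0897). Mapk12, the p38 gamma of skeletal muscle and the most abundant MAP kinase gene, was at 18.1 ± 0.904 and 16.1 ± 0.878 RPKM (adjusted p = 0.216). The JNK genes Mapk8 (log2 difference -0.10, adjusted p = 0.317) and Mapk9 (0.07, adjusted p = 0.609) did not pass.

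Higher in the cascade, Map3k6 (ASK2) rose from 1.10 ± 0.297 to 1.86 ± 0.0987 RPKM (log2 difference 0.46, adjusted p = 0.0253). Map3k15 (ASK3) fell from 14.8 ± 0.257 to 11.4 ± 0.426 RPKM (log2 difference -0.35, adjusted p = 0.0166). Both encode stress-activated kinases above p38 and JNK. Among scaffolds and adaptors, the stress sensors Gadd45b and Gadd45g, which bind the kinase MAP3K4, fell with log2 differences of -1.09 and -0.73 (adjusted p = 0.0466 and 0.022). Gadd45b was at 7.14 and 6.74 RPKM in WT replicates 2 and 3 and at 2.35 in WT replicate 4, close to the highest KO library (2.03). Ksr1, the scaffold of the ERK cascade, fell by 0.32 (adjusted p = 0.0294) and Mknk1, a kinase of the translation factor eIF4E, fell by 0.35 (adjusted p = 0.016), both on the log2 scale. Each of these 6 calls ended on removal of any of 3 or more libraries. Those of Map3k6 and Mknk1 did so when any KO library was removed (adjusted p = 0.0961 and 0.0667 at most), and Map3k15 and Ksr1 also on removal of WT replicate 3 (0.0895 and 0.119 at most). That of Gadd45b ended on removal of any library but WT replicate 4 (0.148 at most), and that of Gadd45g on removal of WT replicate 3, KO replicate 2 or KO replicate 3 (0.0863 at most). With equal library medians, Map3k15, Ksr1 and Gadd45b were not called (adjusted p = 0.0808, 0.152 and 0.0554), nor was Ksr1 with the replicate number as a block (0.0543) or Gadd45b in limma-voom (0.0599).

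**Figure D4:**
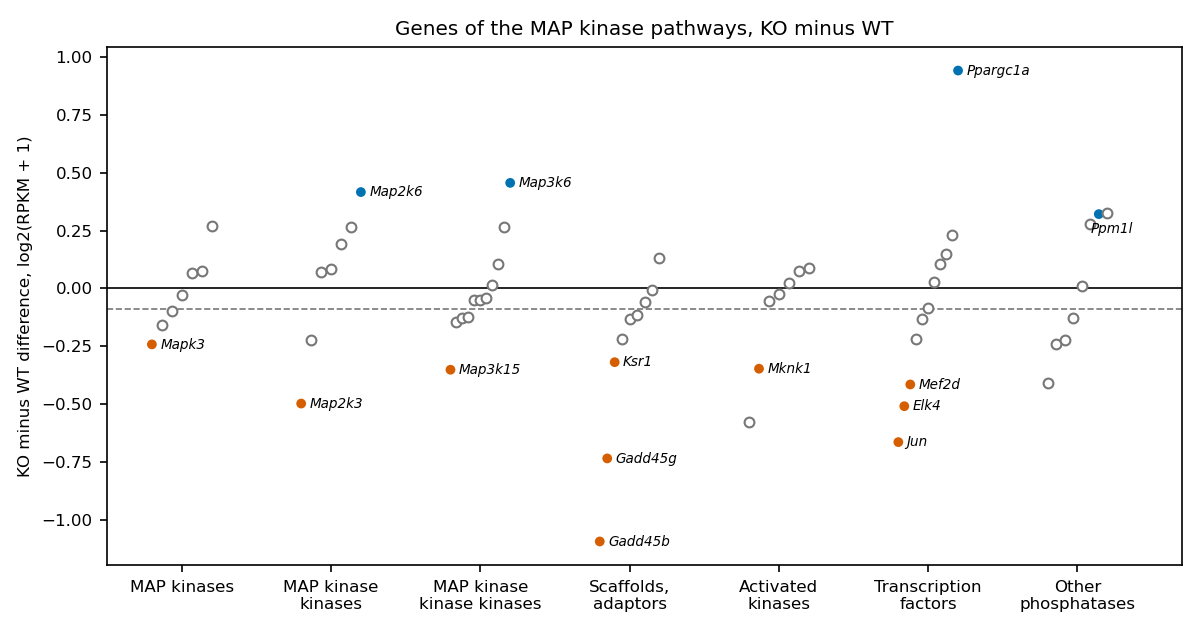
KO minus WT difference in log2(RPKM + 1) for each tested gene of 7 groups of the MAP kinase pathways. Filled points are called at an adjusted p under 0.05 (blue higher, orange lower, named), open points are not, and the dashed line is the median of all tested genes; Map2k6 (0.42) and Map2k3 (-0.50) lie on opposite sides of 0.

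Downstream, 20 of 45 listed targets, inhibitors and other phosphatases were tested, of which 2 rose and 3 fell, beside 17.3% called over all tested genes. Jun, the AP-1 factor that JNK phosphorylates, fell from 20.7 ± 1.79 to 12.7 ± 1.41 RPKM (log2 difference -0.66, adjusted p = 0.00666). Elk4, a partner of SRF, and Mef2d, a MEF2 factor, fell by 0.51 and 0.41 on the log2 scale (adjusted p = 0.0185 and 0.0248). Ppargc1a was 1.37 to 2.26 RPKM in WT and 3.51 to 5.49 in KO (log2 difference 0.94, adjusted p = 0.0082). The list's other riser was Ppm1l, a serine and threonine phosphatase of stress kinases (0.32, adjusted p = 0.0257). Errfi1, the tested gene of the list of RAS and ERK inhibitors, had 5.92 ± 1.75 RPKM in WT against 3.94 ± 0.163 in KO (adjusted p = 0.0861). The count of 5 calls was 3 without WT replicate 3 and 2 without KO replicate 1, 2 or 3. Removing any KO library ended the calls of Elk4, Mef2d and Ppm1l (adjusted p = 0.072, 0.0962 and 0.109 at most), and removing WT replicate 3 ended those of Mef2d and Ppm1l.

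Genes with a profile like that of Dusp10 were ranked by the root mean square distance between log2(RPKM + 1) profiles over the 6 libraries, each centred on its own mean. The median distance over 7567 genes was 0.738. The nearest were Art5, a muscle ADP-ribosyltransferase, at 0.184, the myelin gene Pmp22 at 0.193, Mir101a at 0.196, the dynein light chain gene Dynlt1b at 0.208 and Atp1b4, which encodes an inner nuclear membrane protein of muscle, at 0.215. All 5 were lower in every KO library than in every WT library, which the likeness to Dusp10 fixes. The reads of 2 of them are uncertain: all 50-base stretches of the Mir101a transcript also occur in E130102H24Rik on the same strand, and 83.2% of those of Dynlt1b occur in other genes such as Dynlt1c and Dynlt1a.

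**Figure D5:**
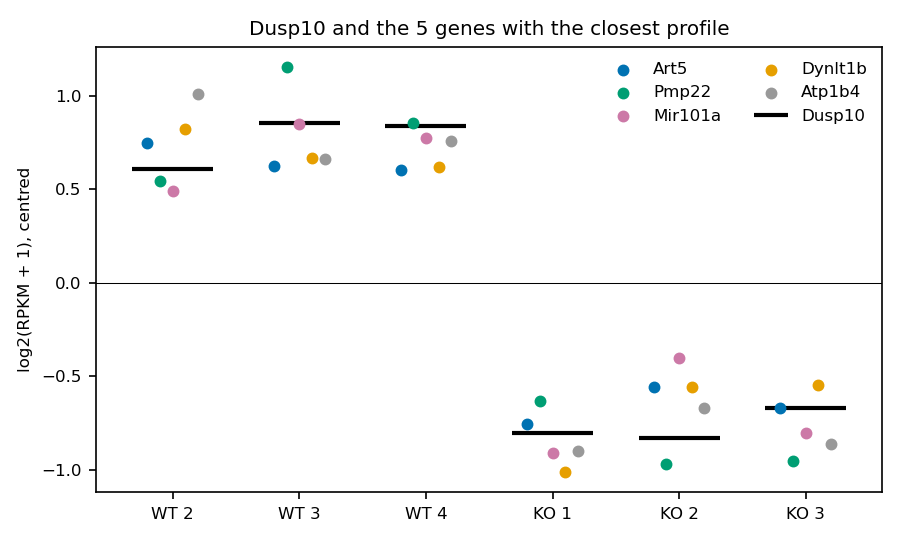
log2(RPKM + 1) of Dusp10 (black bars) and of the 5 genes nearest to it (points), each centred on its own mean over the 6 libraries, by library. All 6 genes lie above 0 in the WT libraries and below 0 in the KO libraries.

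Markers of nerve and Schwann cells moved with genotype in the direction of Dusp10. Of 8 listed, 7 were in the table, none at 0 in all libraries, and all 7 were lower in every KO library than in every WT library. Their summed level was 36.4 to 55.2 RPKM in WT and 11.7 to 14.5 in KO. Over all tested genes, 30.0% were lower in every KO library than in every WT library. Endothelial markers summed to 27.0 to 41.3 RPKM in WT, the highest in WT replicate 2, and to 23.3 to 24.9 in KO. Of those 10 genes, 4 were lower in every KO library than in every WT library, and the others overlapped. That is near the 30.0% of all tested genes, so nothing is read from the count. Of the 9 endothelial genes tested, only Cldn5 was called (lower, limma-trend). Cldn5 reached 1 RPKM in the WT libraries only, so it entered the fit through the group where it was higher, and nothing is read from that call. Markers of fibro-adipogenic progenitors summed to 17.8 to 30.9 RPKM in WT and 27.3 to 33.8 in KO. All 5 tested genes of that list had a log2 difference above 0. Of its 8 genes, Col3a1 and Smoc2 were higher in every KO library than in every WT library, beside 9.22% of all tested genes, and the others overlapped. Both were called higher (limma-trend, adjusted p = 0.0345 and 0.0398). The list of smooth muscle and pericyte markers holds Des, which skeletal muscle fibres also express and which made up most of its sum (665 to 726 RPKM over the 6 libraries), so that sum is not given as a level of those cells. Its gene Acta2 was at 6.51 to 11.2 RPKM in WT and at 6.45 to 10.6 in KO. Of the 7 genes of that list, only Pdgfrb was lower in every KO library (1.63 to 1.98 RPKM in WT, 1.33 to 1.52 in KO), and the others overlapped. Of the 6 tested, 5 had a log2 difference below 0 and 1 above it, and none was called (limma-trend). The adipocyte markers measured (2 of 6) summed to 27.2 to 34.6 RPKM in WT and 19.4 to 22.8 in KO. Fabp4 (26.9 to 34.3 RPKM in WT, 19.1 to 22.3 in KO) made up nearly all of it, so that sum is in effect 1 gene. Pparg overlapped between genotypes, at 0.253 to 0.532 RPKM in WT and 0.233 to 0.453 in KO. Ighm, the measured lymphocyte marker, was at 2.67 to 9.28 RPKM in WT and 12.5 to 21.6 in KO. The macrophage, satellite cell and erythrocyte sums overlapped between genotypes. The part of any of these cells in the levels of Dusp10, Dusp26 and the other members was not tested. In bulk muscle, fewer cells of a type and less RNA per cell cannot be told apart.

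Of 4 fibre type markers, Myh1 and Myh2 were called lower in KO, and Myh4 and Myh7 did not pass. The myosin genes Myh1 and Myh2 were at 1666 to 2956 and 1426 to 1721 RPKM in WT and at 885 to 1466 and 706 to 1251 RPKM in KO. Myh4, the myosin of type IIb fibres, was at 31050 to 35804 RPKM in WT and 40638 to 41918 in KO (adjusted p = 0.0885 in limma-trend). Myh7, the myosin of slow fibres, was at 30.9 to 269 RPKM in WT and 69.3 to 112 in KO, and its groups overlapped (adjusted p = 0.914). Their part in the levels of the phosphatase genes was not tested.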

How the data were processed

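RNA of gastrocnemius from WT and KO mice was made into 3 libraries per genotype with random-hexamer cDNA synthesis after mRNA fragmentation, per the labels' protocols. Titles gave each library its genotype and number. GRCm39 is the build named by the submitters' processing notes. Not given in the sources used here were the aligner, counter, annotation and use of strand. The deposited table holds RPKM for each gene in each library (the unit was inferred from its numbers). Beside these it holds the authors' own comparison, per the file headers a log2 fold change, a log2 CPM, an F score, a p-value and an FDR, of which the log2 fold change was used.

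RPKM times gene length times a library total gave whole reads (within 0.02) in all libraries for 80.4% of 11481 genes with a length in GENCODE M21, and with lengths inferred for the others reads were recovered for 11812 genes. Libraries of a group differed beyond sampling noise (chi-square of 25.3 or more per degree of freedom). Intervals of counts alone are therefore not given.

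The test was limma-trend (limma 3.58.1, R 4.3.3) on log2(RPKM + 1), genotype as the only term, for genes that reached 1 RPKM in 3 or more libraries, with Benjamini-Hochberg adjustment over all 7574 tested genes and a threshold of 0.05. The fit was also run on simulated data with independent noise for each gene, and nothing about these libraries is read from that run. The members and gene lists were chosen with earlier results of these data known. Named genes were the 8 members, up to 4 called genes per pathway list and direction (or the one with the smallest p), and the 5 genes nearest to Dusp10. Genes named for context (Mapk14, Mapk12, Mapk8, Mapk9, Map2k7, Map2k2, Ckm, Acta1 and the myosins) were added after their values were seen. Alternatives were equal library medians, a pseudocount of 0.1, leaving out each library, keeping low genes, a block for the replicate number and, added after seeing the data, limma-voom on recovered reads. Promoter stretches and gene positions are of GRCm38 (RefSeq and GENCODE M21), not the build of the notes. Python 3.11.15 with pandas 2.3.3 and numpy 2.4.6 did the sums and matplotlib 3.10.9 the figures.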

Additional observations from a re-analysis of the deposited data

How the results depend on the processing

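The Dusp10 difference stayed below 0 in all alternatives, from -1.61 to -1.49 with each library left out, and was -2.43 with a pseudocount of 0.1 and -2.61 in limma-voom on recovered reads, where the scale shrinks low values less. Leaving out 1 library at a time gave 471 to 1637 called genes (1311 with all), 0 to 11 called cascade genes, 1 to 4 called genes among the other dual-specificity phosphatases and 2 to 6 among targets, inhibitors and other phosphatases. With no filter on low values, 7 of the other dual-specificity phosphatases were called, of 22 tested. Replicate numbers 2 and 3 occur in both genotypes, and deviations of same-numbered libraries from their group means correlated at 0.479 and 0.27. Those of WT replicate 4 and KO replicate 1, which share no number, correlated at 0.431. The other pairs of unlike number lay at -0.389 to -0.052. With 2 shared numbers and no label that ties the libraries, the samples share only a number. With replicate number as a block, 1548 genes were called in all and 8 rather than 5 among targets, inhibitors and other phosphatases. Number 1 occurs only in KO and number 4 only in WT. That fit therefore takes its genotype differences from replicates 2 and 3 alone, matched by number, and is no alternative over all libraries. Why it called more genes was not tested. The fewest reads per library lie behind the KO levels of Dusp10 and the levels of Dusp8 (88 to 190), but libraries of a group differed beyond counting error, so read number does not rank the precision of the members.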
